A study of Mus musculus with 7 samples.

Results

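The genes described here encode the 3 TGF-beta ligands (*Tgfb1*, *Tgfb2* and *Tgfb3*), the type I and type II receptors that bind them (*Tgfbr1* and *Tgfbr2*), latent TGF-beta binding proteins of the extracellular matrix (*Ltbp1*, *Ltbp2* and *Ltbp3*), a matrix protein named for its induction by TGF-beta (*Tgfbi*) and the inhibitory SMAD of the pathway (*Smad7*). They were chosen by name as the core of TGF-beta signalling, by a rule that uses no measured value but was set with earlier results of these data known. All 10 are among the 21965 genes of the count table, and all 10 passed the filter on low counts that left 15743 genes for testing. RNA was sequenced from a spinal cord segment centred on the epicenter of a moderate contusion (thoracic level T9) of young adult mice. The study describes such segments as holding both the epicenter and the penumbra around it. Collection was on dpi 3 (3 days post injury), with 1 library per mouse and no uninjured or sham libraries. The 3 *Bmal1*-/- mice (2 females, 1 male) were B6.129-Arntltm1Bra/J animals on C57BL/6, with both germline copies of *Arntl* (*Bmal1*) disrupted in all tissues, and came from crosses of heterozygotes. The 4 WT C57BL/6 mice (2 females, 2 males) had the same injury, and in the study WT controls were purchased, with littermates used where possible. Only 1 of these 4 was a littermate of the knockouts, so that genotype and origin cannot be told apart for the rest.

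BMAL1, encoded by *Arntl*, is the non-redundant activator of the circadian clock and binds E-box sequences together with CLOCK. TGF-beta is secreted in a latent form, in which its own propeptide encloses the ligand and a latent TGF-beta binding protein ties the complex to the matrix, until integrins or proteases release it. Released ligand binds TGFBR2, which recruits and phosphorylates TGFBR1, and the signal passes to the nucleus through SMAD2 and SMAD3, while SMAD7 blocks it at the receptor. In injured spinal cord TGF-beta is known for its part in scar formation by astrocytes and fibroblasts and in the response of macrophages and vessels.

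The 7 libraries held 38529644 to 44096737 counts on genes. Neuron, oligodendrocyte and astrocyte markers were present in every library, as the tissue label requires, at summed levels of at least 2133 CPM (counts per 1000000). The count of the targeted gene went against the genotype label: *Arntl* was at 23.6 ± 0.941 CPM (n = 3, SD) in libraries with the *Bmal1*-/- label and at 13.8 ± 1.50 CPM (SD, n = 4) in those with the WT label. That count covers the whole gene, so it does not test the loss of the deleted exons, and exons on the opposite strand overlap those of *Arntl*. *Nr1d1* and *Dbp*, clock genes that BMAL1 is known to activate, were lower in the libraries with the *Bmal1*-/- label, at 6.00 ± 1.11 and 8.45 ± 0.566 CPM (n = 3, SD), than in those with the WT label, at 34.2 ± 3.47 and 30.4 ± 6.20 CPM (n = 4, SD), and exons on the opposite strand overlap those of both. Each direction given here is by the genotype labels. WT library 3 stood apart from the other libraries in a principal component analysis, and values without it are given where they change a reading.

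*Ltbp1* fell in the *Bmal1*-/- libraries, and no other of the 10 genes passed the test. By the quasi-likelihood test of edgeR, with p adjusted over all genes tested by the Benjamini-Hochberg method, 1 of 10 had an adjusted p under 0.05, where 1.57% of all genes tested did. An unadjusted p under 0.05 was found for 3 of 10 (*Ltbp1*, *Tgfbr2* and *Tgfbi*), against 20.9% of all genes tested. The genotypes did not overlap in 2 of 10 (*Ltbp1* and *Tgfbi*), against 26.9% of all genes tested, so that share was near the background. The log2 fold change was below 0 for 7 of the 10 and above 0 for 3, with a median of -0.15, while 51.1% of all genes tested were below 0 with a median of -0.006. In RNA from whole tissue, fewer cells of a type and less RNA per cell cannot be told apart.

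**Figure D1:**
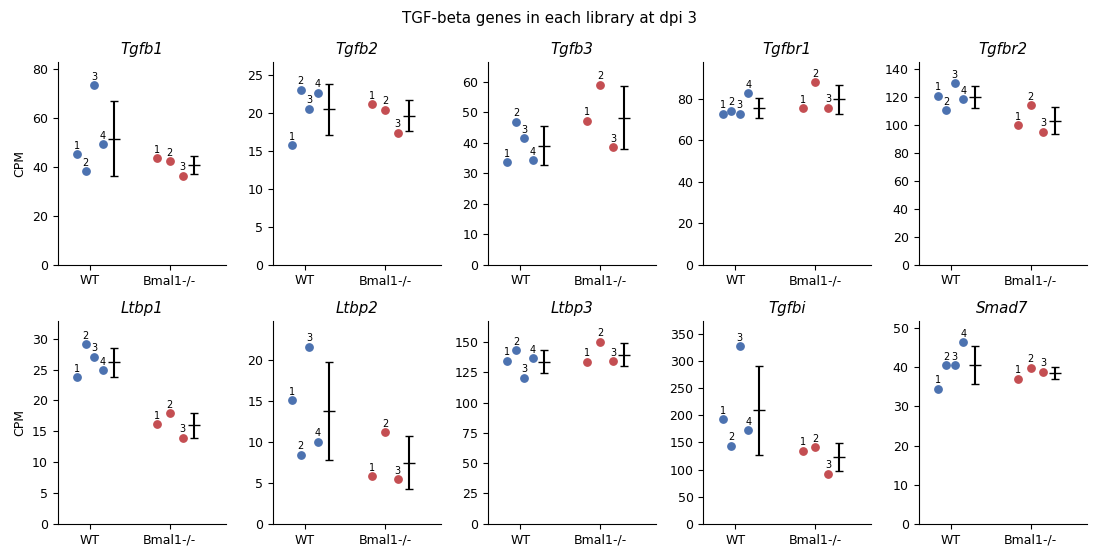
CPM of each of the 10 genes (y axes from 0, one scale per panel) in the 4 WT (blue) and 3 *Bmal1*-/- (red) libraries, each point a library with its replicate number, and beside the points the mean ± SD. The *Bmal1*-/- points of *Ltbp1* (13.9 to 17.9 CPM) all lie below the WT points (23.8 to 29.1 CPM), and WT library 3 is the highest for *Tgfb1*, *Ltbp2* and *Tgfbi*.

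Among the ligands, *Tgfb1* (chr7:25687002-25705077, plus strand, GRCm38), the isoform best known from platelets, macrophages and microglia, stood at 43.5, 42.3 and 36.5 CPM in *Bmal1*-/- libraries 1 to 3 and at 45.2, 38.2, 73.4 and 49.3 CPM in WT libraries 1 to 4. The groups overlapped, and WT library 3 lay far above the other WT libraries. The means were 40.8 ± 3.77 CPM (SD, n = 3) and 51.5 ± 15.3 CPM (SD, n = 4), and the log2 fold change was -0.34 ± 0.21 (SE; edgeR adjusted p = 0.362), with a 95% interval from -0.84 to 0.16. Without WT library 3 it was -0.12 (edgeR adjusted p = 0.551). That library also had the highest summed levels of macrophage markers (4693 CPM, against 2322 to 3207 CPM in the other WT libraries) and platelet markers (72.7 CPM, against 23.9 to 36.3 CPM), and the part of these cells in its *Tgfb1* level was not tested. All 12 macrophage markers and all 6 platelet markers were detected in at least 1 library. *Pf4* alone held 62.4 CPM of the platelet sum of WT library 3. *Ppbp* (1.67 CPM) and *Itga2b* (7.44 CPM) were also highest there, but *Gp9* and *Gp1bb* were not, and *Gp1ba* was at most 0.125 CPM. The sums of neutrophil (128.0 CPM), endothelial (914.2 CPM), pericyte and smooth muscle (995.1 CPM) and oligodendrocyte markers (34497 CPM) were highest in that library too.

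*Tgfb2* (chr1:186622792-186705989, minus strand), an isoform prominent in development and in astrocytes and neurons, stood at 21.2, 20.4 and 17.4 CPM in *Bmal1*-/- libraries 1 to 3 and at 15.7, 23.0, 20.5 and 22.6 CPM in WT libraries 1 to 4. The *Bmal1*-/- values lay inside the WT range. The log2 fold change was -0.06 ± 0.15 (SE; edgeR adjusted p = 0.818), with a 95% interval from -0.40 to 0.28, and its sign turned under 2 of 16 alternative settings.

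The RefSeq promoter windows (GRCm38.p6; 250 bases before to 50 bases after each start) gave 10 windows for 8 of the 10 genes, and among these 8 *Tgfb2* was the only one with a canonical E-box. CACGTG, read on both strands, was found in 1 of these 10 windows, and in 7.15% of all 32851 windows. The variant CACGTT, searched on both strands and with no overlap with CACGTG, was found in 1 of the 10 windows, that of *Ltbp3*, 26 bases after the start, and in 4.68% of all windows. The *Tgfb2* E-box began 51 bases before the start. The sequence below gives the 250 bases before that start on the minus strand (chr1:186705990-186706239), with the E-box in capitals, to show where it lies in the only window that holds it.
Tgfb2 promoter: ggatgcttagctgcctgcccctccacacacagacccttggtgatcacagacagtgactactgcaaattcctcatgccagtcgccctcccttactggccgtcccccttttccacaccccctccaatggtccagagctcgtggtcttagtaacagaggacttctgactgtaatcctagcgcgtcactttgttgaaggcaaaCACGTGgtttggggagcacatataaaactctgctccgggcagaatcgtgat
A match is a description of these letters and no measurement of binding.

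*Tgfb3* (chr12:86056745-86079041, minus strand), the ligand with the highest mean level per kilobase of exon in both genotypes, although *Tgfb1* was higher in WT library 3, stood at 47.2, 59.1 and 38.5 CPM in *Bmal1*-/- libraries 1 to 3. The WT libraries 1 to 4 had 33.6, 47.0, 41.6 and 34.2 CPM. The groups overlapped, with *Bmal1*-/- library 2 highest. Its log2 fold change was 0.30 ± 0.17 (SE; edgeR adjusted p = 0.326), with a 95% interval from -0.10 to 0.71, and without *Bmal1*-/- library 2 it was 0.13 (edgeR adjusted p = 0.647).

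Set against each other per kilobase of exon (union of the GENCODE M21 exons), the summed ligand level was 25.7 ± 3.90 CPM per kilobase (SD, n = 3) in *Bmal1*-/- and 25.3 ± 3.73 CPM per kilobase (SD, n = 4) in WT libraries. *Tgfb3* made up 55.1 ± 3.77% (SD, n = 3) of that sum in *Bmal1*-/- and 45.9 ± 6.25% (SD, n = 4) in WT libraries. *Tgfb1* made up 31.6 ± 2.69% and 40.1 ± 7.54%, and *Tgfb2* made up 13.3 ± 1.08% and 14.1 ± 2.31%, of the *Bmal1*-/- and WT sums. These shares show a ligand pool led by *Tgfb3* in each *Bmal1*-/- library, while the WT libraries were unlike each other. WT library 2 (*Tgfb3* 54.6%, *Tgfb1* 29.8%) lay inside the *Bmal1*-/- ranges, and WT library 3 was led by *Tgfb1* (47.9%, against 40.4% for *Tgfb3*). Ratios within a library do not depend on the scaling of libraries, and 4 were tested with an exact two-sided permutation test over the 35 regroupings of the libraries, of which the smallest possible p is 0.0286. The log2 ratio of *Tgfb3* to *Tgfb1* counts was 0.23 ± 0.22 in *Bmal1*-/- and -0.37 ± 0.48 in WT libraries, a difference of 0.60 (exact p = 0.114, adjusted over the 4 ratios 0.152). That difference was 0.45 without WT library 3. The log2 ratio of *Tgfb2* to *Tgfb1* was -1.05 ± 0.02 and -1.30 ± 0.48, a difference of 0.25 (exact p = 0.371, adjusted 0.371) that was 0.07 without WT library 3 and 0.44 without WT library 2. Neither difference passed the test, and the genotypes overlapped in both ratios. A ratio at the smallest possible p had 0.114 after adjustment over the 4 ratios, so 1 ratio alone could not pass.

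**Figure D2:**
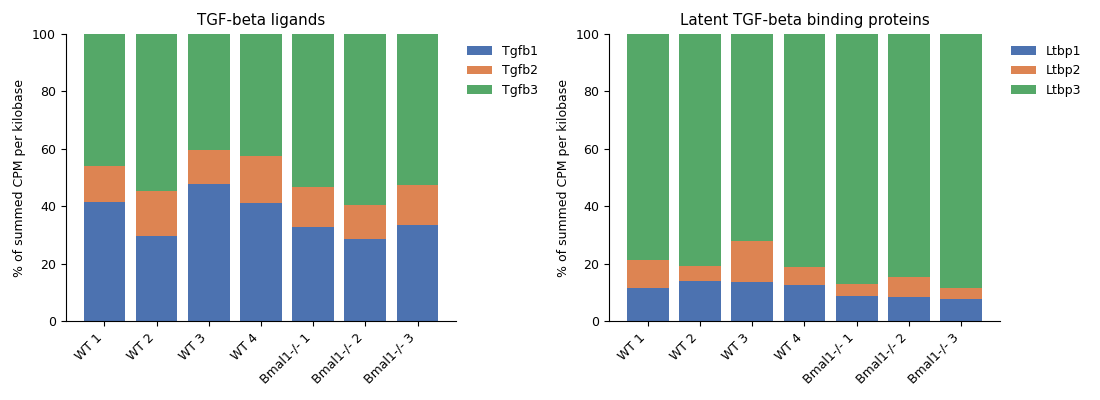
Share of each gene in the summed CPM per kilobase of exon (y axis, percent) of the 3 ligands (left) and of *Ltbp1*, *Ltbp2* and *Ltbp3* (right), one stacked bar per library. *Ltbp4* is not included. *Ltbp3* takes 72.0% to 88.3% of the right-hand bars, and the *Ltbp1* share is 7.77% to 8.89% in the *Bmal1*-/- bars and 11.8% to 13.9% in the WT bars.

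Among the receptors, *Tgfbr1* (chr4:47353222-47414931, plus strand), the kinase that phosphorylates SMAD2 and SMAD3, stood at 75.6, 87.9 and 75.8 CPM in *Bmal1*-/- libraries 1 to 3 and at 72.7, 74.4, 72.9 and 82.7 CPM in WT libraries 1 to 4. The groups overlapped, and apart from *Bmal1*-/- library 2 and WT library 4 the levels were nearly equal. Between genotypes the log2 fold change was 0.08 ± 0.08 (SE; edgeR adjusted p = 0.561), with a 95% interval from -0.11 to 0.26.

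*Tgfbr2* (chr9:116084293-116175360, minus strand), the ligand-binding kinase, stood at 99.9, 114.3 and 95.4 CPM in *Bmal1*-/- libraries 1 to 3, and at 120.9, 110.7, 130.0 and 118.6 CPM in WT libraries 1 to 4. *Bmal1*-/- libraries 1 and 3 lay below all WT libraries, but library 2 lay above WT library 2. The log2 fold change was -0.22 ± 0.09 (SE; unadjusted p = 0.0361, edgeR adjusted p = 0.215), with a 95% interval from -0.42 to -0.02. The log2 ratio of *Tgfbr2* to *Tgfbr1* counts was 0.40, 0.38 and 0.33 in *Bmal1*-/- libraries 1 to 3 and 0.73, 0.57, 0.83 and 0.52 in WT libraries 1 to 4. The ratios did not overlap, and their means, 0.37 ± 0.04 (SD, n = 3) and 0.66 ± 0.14 (SD, n = 4), differed by -0.29. The exact permutation p was 0.0571, and 0.114 after adjustment over the 4 ratios, under which 1 ratio alone could not pass. Per kilobase, *Tgfbr1* took 49.2 ± 0.634% of the summed level of both receptors in *Bmal1*-/- and 44.2 ± 2.47% in WT libraries.

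*Ltbp1*, which tethers the latent complex to fibrillin and fibronectin fibres and so stores TGF-beta in the matrix, stood at 16.1, 17.9 and 13.9 CPM in *Bmal1*-/- libraries 1 to 3 and at 23.8, 29.1, 27.0 and 24.9 CPM in WT libraries 1 to 4. Each *Bmal1*-/- library lay below each WT library, and the gap between the groups was of about the size of the range within the WT group. The mean was 26.2 ± 2.35 CPM (SD, n = 4) in WT and 16.0 ± 2.00 CPM (SD, n = 3) in *Bmal1*-/- libraries, so that *Ltbp1* fell by 39.0% (log2 fold change -0.71 ± 0.11 SE, edgeR adjusted p = 0.0328), with a 95% interval from -0.98 to -0.45. Within each library, the log2 ratio of *Ltbp1* to *Ltbp3* counts was -3.05, -3.07 and -3.27 in *Bmal1*-/- libraries 1 to 3 and -2.50, -2.30, -2.16 and -2.45 in WT libraries 1 to 4. These ratios did not overlap, and the difference of -0.78 had the smallest p that the exact permutation test could give (0.0286, adjusted over the 4 ratios 0.114).

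The *Ltbp1* call was lost in 5 of 7 fits with 1 library removed. Across them the log2 fold change stayed between -0.80 and -0.62, but the edgeR adjusted p was 0.158 without *Bmal1*-/- library 1, 0.112 without *Bmal1*-/- library 3, 0.0631 without WT library 1, 0.0687 without WT library 2 and 0.0762 without WT library 4. The gene remained called without *Bmal1*-/- library 2 (0.0462) and without WT library 3 (0.0254), also by edgeR.

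*Ltbp1* (ENSMUSG00000001870) lies on the plus strand of chromosome 17 (GRCm38, 75005568 to 75392512), with no exon of another annotated gene over its own exons. RefSeq gives 2 starts for it, and neither window held CACGTG or CACGTT. Their 250 bases before the start are printed because *Ltbp1* is the member that passed the test, with all letters in lower case since no motif was found. The upstream window is chr17:75005279-75005528 and the window of the internal start is chr17:75178531-75178780, both on the plus strand.
Ltbp1 upstream promoter: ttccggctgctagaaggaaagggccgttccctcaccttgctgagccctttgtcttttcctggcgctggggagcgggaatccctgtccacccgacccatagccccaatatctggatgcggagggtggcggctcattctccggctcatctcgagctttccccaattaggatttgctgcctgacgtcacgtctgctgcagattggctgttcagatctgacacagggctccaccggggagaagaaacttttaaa
Ltbp1 internal promoter: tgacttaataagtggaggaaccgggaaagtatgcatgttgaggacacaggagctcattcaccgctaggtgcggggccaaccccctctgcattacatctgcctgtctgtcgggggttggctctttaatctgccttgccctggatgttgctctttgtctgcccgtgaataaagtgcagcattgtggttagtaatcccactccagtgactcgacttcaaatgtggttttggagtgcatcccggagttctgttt
The gene-level counts do not tell transcripts from the upstream and the internal start apart.

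Markers of several cell types also differed between the same libraries. The summed level of 10 pericyte and smooth muscle markers was 434.5 to 536.5 CPM in the *Bmal1*-/- and 754.6 to 995.1 CPM in the WT libraries, with 7 of 10 lower and 2 that fell (*Tagln* and *Des*). Of these sums *Tagln* alone held 71.6 to 106.1 CPM and 283.5 to 419.1 CPM. The other 3 markers were higher without passing, with log2 fold changes of 0.09 (*Kcnj8*), 0.26 (*Abcc9*) and 0.33 (*Notch3*), so the sum does not stand for each pericyte marker. The summed level of 8 skeletal muscle markers, a tissue outside the cord, was 5.44 to 7.08 CPM and 51.5 to 67.0 CPM, with 8 of 8 lower and 6 that fell, while that of 7 Schwann cell markers was 220.5 to 294.4 CPM and 312.7 to 671.2 CPM, with 7 of 7 lower and 1 that fell (*Egr2*). The 11 endothelial markers summed to 492.0 to 559.5 CPM and to 579.8 to 914.2 CPM, with 10 of 11 lower and 1 that fell (*Cdh5*). Those falls are by edgeR. DESeq2 called 4 pericyte and smooth muscle markers lower and 1 higher, and 8 skeletal muscle, 5 Schwann cell and 3 endothelial markers lower. By limma-voom 1, 6, 1 and 0 markers of these lists were called lower, in the same order. None of these 4 sums overlapped between the genotypes. The sums of neuron markers (5278 to 6358 CPM in *Bmal1*-/- and 2133 to 5172 CPM in WT libraries, with 10 of 10 higher) and astrocyte markers did not overlap either, in the opposite direction. None of these markers passed edgeR's adjusted threshold. Of the neuron markers 2 had an unadjusted p under 0.05 and DESeq2 called 1. *Gfap* held most of the astrocyte sum in each library. Of the astrocyte markers 5 were higher and 3 lower (*Aldh1l1* -0.47, *Slc1a3* -0.44 and *S100b* -0.29 as log2 fold changes), so the sum does not stand for each astrocyte marker. The 12 fibroblast and meningeal markers summed to 499.5, 2408 and 420.2 CPM in *Bmal1*-/- libraries 1 to 3 and to 1277 to 2052 CPM in WT libraries, with 10 of 12 lower, 3 of unadjusted p under 0.05 and none that passed edgeR's adjusted threshold, where DESeq2 called 2. In *Bmal1*-/- library 2, 5 of the 12 (3 of them collagens) lay above every WT library and 2 lay below every WT library. That library had the highest *Ltbp1* level and the highest fibroblast and meningeal sum of the 3 *Bmal1*-/- libraries. None of these markers was at 0 in all libraries, and the part of these cells in the *Ltbp1* level was not tested.

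**Figure D3:**
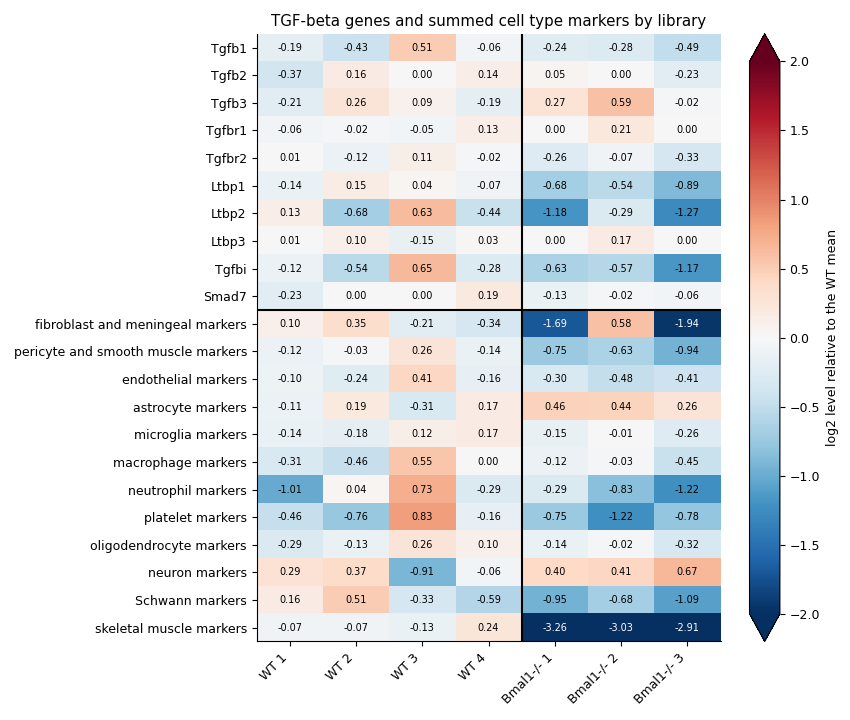
log2 level of each of the 10 genes and of 12 summed cell type marker lists in each library, relative to the WT mean (colour scale and printed values; the colours end at -2 and 2). *Ltbp1*, pericyte and smooth muscle, Schwann and skeletal muscle markers are below the WT mean in all 3 *Bmal1*-/- libraries. So are *Tgfb1*, *Tgfbr2*, *Ltbp2*, *Tgfbi* and *Smad7*, and endothelial, microglia, macrophage, neutrophil, platelet and oligodendrocyte markers, some of them only slightly. Fibroblast and meningeal markers are low in *Bmal1*-/- libraries 1 and 3 and high in library 2.

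*Ltbp2* (chr12:84783212-84876532, minus strand), which binds fibrillin but is not known to bind the latent ligand, was the least abundant of the 10 genes. It stood at 5.79, 11.2 and 5.43 CPM in *Bmal1*-/- libraries 1 to 3 and at 15.1, 8.43, 21.7 and 10.01 CPM in WT libraries 1 to 4. The groups overlapped, with *Bmal1*-/- library 2 above WT libraries 2 and 4, and both groups varied widely around their means of 7.48 ± 3.24 CPM (SD, n = 3) and 13.8 ± 5.97 CPM (SD, n = 4). *Ltbp2* had a log2 fold change of -0.88 ± 0.40 (SE; edgeR adjusted p = 0.254), with a 95% interval from -1.81 to 0.05. Its estimate was larger than that of *Ltbp1*, with an interval that contained 0, and it was -0.58 without WT library 3 and -1.30 without *Bmal1*-/- library 2.

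*Ltbp3* (chr19:5740904-5758532, plus strand), a binding protein known for its place in bone and tooth matrix, was the most abundant of these 3 binding proteins per kilobase. Its levels were 133.8, 150.4 and 134.1 CPM in *Bmal1*-/- libraries 1 to 3 and 134.6, 143.2, 120.5 and 136.4 CPM in WT libraries 1 to 4. The groups overlapped almost wholly. Between genotypes the log2 fold change was 0.06 ± 0.08 (SE; edgeR adjusted p = 0.645). *Ltbp1* made up 8.40 ± 0.574% of the summed per-kilobase level of the 3 binding proteins in *Bmal1*-/- and 13.0 ± 1.01% in WT libraries, *Ltbp2* made up 5.04 ± 1.69% and 8.99 ± 4.04%, and *Ltbp3* made up 86.6 ± 1.92% and 78.0 ± 4.20%. The sum itself was 17.8 ± 1.60 and 18.9 ± 0.481 CPM per kilobase. *Ltbp4* is not part of this sum or these shares. It stood at 41.8, 49.7 and 41.1 CPM in *Bmal1*-/- libraries 1 to 3 and at 61.2, 57.2, 74.8 and 59.5 CPM in WT libraries 1 to 4. Its groups did not overlap, with a log2 fold change of -0.52 ± 0.12 (SE; edgeR unadjusted p = 0.00257, adjusted p = 0.0802).

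*Tgfbi* (chr13:56609523-56639562, plus strand), a secreted protein that links collagens and integrins and that macrophages and fibroblasts make under TGF-beta, had the highest level per kilobase of the 10 genes. It stood at 134.7, 141.0 and 92.6 CPM in *Bmal1*-/- libraries 1 to 3 and at 192.4, 143.6, 327.7 and 172.0 CPM in WT libraries 1 to 4. The groups did not overlap, but *Bmal1*-/- library 2 lay just under WT library 2, and WT library 3 lay far above the others. The means were 122.8 ± 26.3 CPM (SD, n = 3) and 208.9 ± 81.6 CPM (SD, n = 4), and the log2 fold change was -0.77 ± 0.30 (SE; unadjusted p = 0.0350, edgeR adjusted p = 0.212), with a 95% interval from -1.46 to -0.07. Without WT library 3 it was -0.46 (edgeR adjusted p = 0.171). The macrophage markers summed to 2348 to 3133 CPM in *Bmal1*-/- and 2322 to 4693 CPM in WT libraries, and their sum was highest in the same library. *Lyz2* alone held 2582.5 CPM of that highest sum, and *Cd163* and *Gpnmb* were not highest there. Of these markers 10 of 12 were lower, 5 had an unadjusted p under 0.05 and none passed edgeR's adjusted threshold (3 by DESeq2). Their part in the *Tgfbi* level was not tested.

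*Smad7* (chr18:75367529-75395935, plus strand), the inhibitory SMAD that the pathway itself induces, stood at 37.0, 39.9 and 38.9 CPM in *Bmal1*-/- libraries 1 to 3 and at 34.5, 40.6, 40.5 and 46.4 CPM in WT libraries 1 to 4. The *Bmal1*-/- values lay inside the WT range. The log2 fold change was -0.07 ± 0.10 (SE; edgeR adjusted p = 0.671), with a 95% interval from -0.30 to 0.16.

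**Figure D4:**
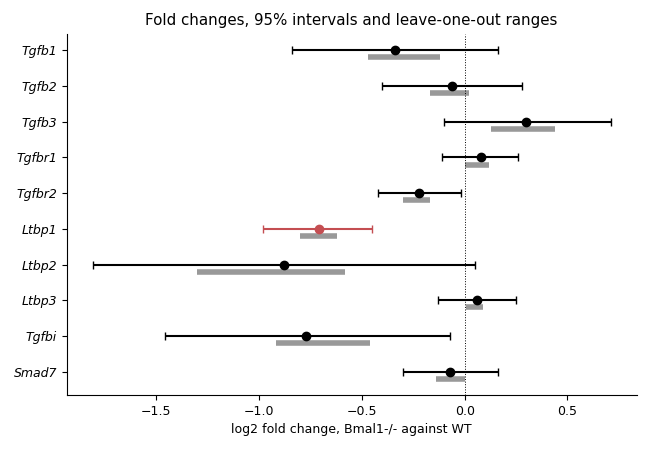
log2 fold change of *Bmal1*-/- against WT libraries (x axis) for each gene, with its 95% interval (thin bars) and, in grey, the range of estimates when 1 library at a time was left out. The interval of *Ltbp1* (red, adjusted p under 0.05) runs from -0.98 to -0.45, and those of *Tgfbr2* and *Tgfbi* also lie below 0 without passing the adjusted threshold.

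Ordered by level per kilobase in WT libraries, *Tgfbi* (55.4 ± 21.6 CPM per kilobase) was followed by *Ltbp3* (14.7 ± 1.05), *Tgfbr2* (14.7 ± 0.969), *Tgfbr1* (11.6 ± 0.727), *Tgfb3* (11.6 ± 1.88), *Tgfb1* (10.2 ± 3.03), *Smad7* (8.96 ± 1.08), *Tgfb2* (3.54 ± 0.579), *Ltbp1* (2.45 ± 0.220) and *Ltbp2* (1.69 ± 0.729), each in CPM per kilobase (SD, n = 4). Of neighbours in this order, *Tgfbi* and *Ltbp3*, *Tgfbr2* and *Tgfbr1*, and *Smad7* and *Tgfb2* had ranges over the WT libraries that did not overlap, and the other neighbours overlapped. In *Bmal1*-/- libraries *Tgfbi* (32.6 ± 6.98 CPM per kilobase) was again highest, *Tgfb3* (14.3 ± 3.05 CPM per kilobase) took the third place and *Tgfb1* (8.08 ± 0.747 CPM per kilobase) stood below *Smad7* (8.53 ± 0.320 CPM per kilobase; SD, n = 3). *Tgfb2*, *Ltbp1* and *Ltbp2* held the lowest places in both genotypes. Exons of genes on the opposite strand overlap those of *Tgfb2*, *Tgfb3*, *Ltbp2* and *Ltbp3*, and the strand setting of the counting is not given in the sources used here, so those levels may hold reads of their partners.

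The genes whose pattern over the 7 libraries was most like that of *Ltbp1* were *Ggt5*, *Cyp39a1*, *Barx2*, *Bhlhe40* and *Synpo2*. Likeness was the root mean square difference of log2 CPM centred on each gene's mean, and it was 0.08, 0.093, 0.098, 0.099 and 0.099 for the 5 genes in that order, where *Ltbp1* itself varied by 0.38 around its mean. *Bhlhe40*, a transcriptional repressor and clock component, stood at 81.2, 82.0 and 75.5 CPM in *Bmal1*-/- libraries 1 to 3 and at 117.6, 129.4, 143.5 and 117.2 CPM in WT libraries 1 to 4. *Synpo2*, an actin-binding protein of muscle, stood at 15.1, 15.5 and 12.5 CPM and at 18.7, 25.9, 20.9 and 22.8 CPM in the same libraries. The 5 share low values in *Bmal1*-/- libraries by the way they were found. Their log2 fold changes were -0.68 (*Ggt5*), -0.56 (*Cyp39a1*), -0.61 (*Barx2*), -0.67 (*Bhlhe40*) and -0.62 (*Synpo2*), with edgeR adjusted p of 0.0786, 0.0416, 0.13, 0.0155 and 0.0744. An exon of *Bhlhe40* overlaps one of a gene on the opposite strand.

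The rest of the pathway was read from 5 lists holding 107 genes, all of which were tested. By edgeR's adjusted p, 1 of the 107 fell and 2 rose, against the 1.57% called among all genes tested. An unadjusted p under 0.05 was found for 34 of the 107, 23 lower and 11 higher, where 20.9% of all genes tested reached it. The log2 fold change was below 0 for 73 and above 0 for 34, with a median of -0.21.

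Of 20 genes that hold or release latent TGF-beta, none passed the test by edgeR or limma-voom and 7 did by DESeq2, which called 9.13% of all genes it tested, 10 had an unadjusted p under 0.05 (6 lower, 4 higher), and 13 were lower and 7 higher with a median log2 fold change of -0.27. *Fn1*, the fibronectin on which LTBP1 is deposited, stood at 738.2, 871.5 and 605.9 CPM in *Bmal1*-/- libraries 1 to 3 and at 1533, 1028, 1563 and 1314 CPM in WT libraries 1 to 4. The groups did not overlap, with a log2 fold change of -0.88 ± 0.19 (SE; edgeR adjusted p = 0.0749). *Itgb6*, a subunit of a latency-releasing integrin of epithelia, was near the limit of detection, at 0.147 ± 0.0339 CPM (SD, n = 3) and 0.304 ± 0.128 CPM (SD, n = 4), with a log2 fold change of -1.03 ± 0.43 (SE; edgeR adjusted p = 0.234).

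Of 8 receptors and co-receptors outside the 10 genes, none passed the test by edgeR or limma-voom and 3 did by DESeq2, 4 had an unadjusted p under 0.05 (3 lower, 1 higher), and 6 were lower and 2 higher with a median log2 fold change of -0.33. *Lrg1*, a secreted modulator of endothelial TGF-beta signalling, stood at 11.1, 10.2 and 10.8 CPM in *Bmal1*-/- libraries 1 to 3 and at 20.9, 17.8, 45.2 and 22.8 CPM in WT libraries 1 to 4. The groups did not overlap, and the log2 fold change was -1.32 ± 0.32 (SE; edgeR adjusted p = 0.099). *Cd109*, a membrane-anchored inhibitor of the receptors, stood at 162.8, 181.4 and 124.6 CPM and at 89.5, 107.1, 119.6 and 97.2 CPM in the same libraries. Its groups did not overlap either, in the opposite direction, with a log2 fold change of 0.60 ± 0.15 (SE; edgeR adjusted p = 0.1).

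Of 16 SMADs and regulators of SMADs, none passed the test by edgeR or limma-voom and 1 did by DESeq2, 2 had an unadjusted p under 0.05 (both lower), and 9 were lower and 7 higher with a median log2 fold change of -0.02. *Tgfb1i1*, a focal adhesion protein that TGF-beta induces and that binds SMADs, was at 17.9 ± 3.55 CPM (SD, n = 3) and 32.5 ± 5.10 CPM (SD, n = 4), with groups that did not overlap and a log2 fold change of -0.86 ± 0.17 (SE; edgeR adjusted p = 0.0646). It lies 15.0 Mb from *Arntl* on chromosome 7. *Zfyve9*, the anchor that brings SMAD2 and SMAD3 to the receptor, was at 93.4 ± 12.9 CPM (SD, n = 3) and 71.8 ± 16.0 CPM (SD, n = 4), with overlapping groups and a log2 fold change of 0.38 ± 0.19 (SE; edgeR adjusted p = 0.284).

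Of 30 genes listed here as TGF-beta-induced, 1 fell by edgeR (8 by DESeq2, which also called 1 higher, against its 9.13% over all genes). In this list 10 had an unadjusted p under 0.05 (9 lower, 1 higher), and 26 were lower and 4 higher with a median log2 fold change of -0.49. Induction of each listed gene in this tissue was not tested. The gene that fell was *Tagln*, an actin-binding protein of smooth muscle that is also on the list of pericyte and smooth muscle markers. It stood at 94.0, 106.1 and 71.6 CPM in *Bmal1*-/- libraries 1 to 3 and at 304.1, 323.3, 419.1 and 283.5 CPM in WT libraries 1 to 4. The lowest WT library lay far above the highest *Bmal1*-/- library, and the log2 fold change was -1.88 ± 0.19 (SE; edgeR adjusted p = 0.00525). Of this list 4 genes are also fibroblast and 2 are also pericyte and smooth muscle markers, so it is not independent of the cell type markers, and exons on the opposite strand overlap those of *Tagln*.

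Of 33 genes of the BMP and activin branch, which include ligands, receptors, SMADs and targets, 2 rose by edgeR (DESeq2 called 3 higher and 2 lower). In this list 8 had an unadjusted p under 0.05 (3 lower, 5 higher), and 19 were lower and 14 higher with a median log2 fold change of -0.09. *Id2*, a dominant-negative partner of basic helix-loop-helix factors and a target of BMP signalling, stood at 151.8, 165.2 and 165.0 CPM in *Bmal1*-/- libraries 1 to 3 and at 98.2, 87.7, 99.3 and 102.5 CPM in WT libraries 1 to 4. Each *Bmal1*-/- library lay above each WT library, and the log2 fold change was 0.73 ± 0.07 (SE; edgeR adjusted p = 0.00508). The other *Id* genes of this list did not rise with it. *Id1* (log2 fold change -0.83, edgeR adjusted p = 0.178) and *Id3* (-0.64, edgeR adjusted p = 0.11) were lower in every *Bmal1*-/- library than in any WT library. *Id4* (-0.16, edgeR adjusted p = 0.489) had overlapping groups. *Bmpr1b*, a type I BMP receptor, stood at 54.3, 51.9 and 48.1 CPM and at 28.1, 32.0, 24.9 and 31.4 CPM in the same libraries. Its groups were as clearly apart as those of *Id2*, with a log2 fold change of 0.82 ± 0.10 (SE; edgeR adjusted p = 0.0121). Astrocyte markers, of which *Gfap* held most, summed to 16244 to 18736 CPM in the *Bmal1*-/- and 10984 to 15481 CPM in the WT libraries. Of these markers 3 of 8 were lower, 4 had an unadjusted p under 0.05 and none passed edgeR's adjusted threshold (DESeq2 called 1 lower and 1 higher). Their part in the *Id2* and *Bmpr1b* levels was not tested.

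**Figure D5:**
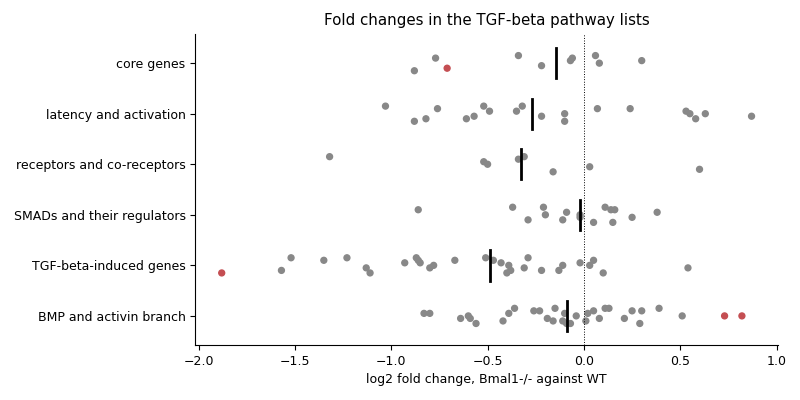
log2 fold change of *Bmal1*-/- against WT libraries (x axis) for each gene (points) of the 10 genes and of the 5 pathway lists, with the median of each list (black bar) and genes of edgeR adjusted p under 0.05 in red. The list of genes taken as TGF-beta-induced has the lowest median, -0.49, and *Tagln* at -1.88 is the leftmost point.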

How the data were processed

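Poly-A RNA from 7 injury sites was sequenced, and per the labels and the study's methods the authors used a stranded library kit, checked reads with FastQC 0.10.1, aligned them to GRCm38.p6 with TopHat and deposited raw HTSeq 0.10.0 counts per gene for each library. The aligner's annotation and the strand setting of the counting are not given in the sources used here. Of 21965 genes, 3039 had no count in any library. Gene names and exon lengths came from GENCODE M21, which matched 21939 identifiers, and the promoter windows came from RefSeq.

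The deposited counts were tested with edgeR 4.0.16 (R 4.3.3): filterByExpr on genotype, TMM scaling, genotype as the only term, all 7 libraries, the quasi-likelihood test, and Benjamini-Hochberg adjustment over all genes tested, with calls at 0.05. CPM (a gene's count per 1000000 counts of the TMM-scaled total) are levels. Counts of the 10 genes ran from 214 to 13125 per library. Ratios had 0.5 added to each count. The script was tested on simulated counts. Alternatives were DESeq2 1.42.0, limma-voom (3.58.1), other scalings and filters, sex as a covariate, a block on replicate number, and leaving out libraries.

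The 10 genes, the pathway lists and the marker lists were chosen with earlier results of these data known. Named genes were the 10; in each list every gene that passed, or else the 2 with the largest absolute log2 fold change; and, for a member that passed, the 5 genes nearest in pattern. *Ltbp4* was also named, as a further latent TGF-beta binding protein. Replicates were separate mice, and no library pair of a group agreed within sampling noise.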

Additional observations from a re-analysis of the deposited data

Results flagged for a closer look

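*Tgfbr1* in WT library 4 lay away from the other WT libraries. It stood at 82.7 CPM there against 72.7, 74.4 and 72.9 CPM in WT libraries 1 to 3, a gap that took up 0.831 of the range of the 4 values, above Dixon's critical value for 4 samples. Of the 14 groups of WT values examined in this way this was the only one, and chance flags about 1 in 20 groups. Sex and genotype were also fitted together with an interaction term, and it passed for none of the 10 genes (lowest edgeR adjusted p = 0.4; unadjusted p = 0.0491 for *Tgfb1*, with an interaction of -0.79 on the log2 scale).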

How the results depend on the processing

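Over 16 alternatives to each of the 10 fold changes, 148 of 160 values kept their direction and their side of the threshold. The other values were 6 lost calls of *Ltbp1* and 6 changes of sign near 0. The signs that turned were those of *Tgfb2* (0.0031 with the replicate block, and -0.17 to 0.02 with 1 library left out, above 0 without *Bmal1*-/- library 3), *Smad7* (0.0048 with the replicate block, and -0.14 to 0.0014 with 1 library left out, above 0 without WT library 4), and, with both *Bmal1*-/- library 2 and WT library 3 left out, an alternative chosen after seeing the data, *Tgfbr1* (-0.02) and *Ltbp3* (-0.04); the cause was not tested. *Ltbp1* was called in 10 of 16 alternatives, including DESeq2 (adjusted p = 1.63e-06) and limma-voom (0.0343), and its adjusted p ranged from 1.63e-06 to 0.275.

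The number of the 10 genes called was 1 in each fit except with the replicate block (0) and over the fits without 1 library (0 to 1). DESeq2 called 1495 genes in all and 25 of the 107 pathway genes, where edgeR called 247 and 3; without 1 library edgeR called 57 to 730 and 2 to 17, and with both libraries left out 898 and 36. The replicate block called 0 genes and 0 pathway genes (*Ltbp1* -0.74, adjusted p = 0.275). Same-numbered libraries did not deviate together (correlations of -0.174, 0.183 and -0.295), and 1 of the 3 *Bmal1*-/- libraries correlated best with its own number, so the numbers were taken as names only; the cause of the lost calls was not tested. The 4 ratios between genes kept their direction in all alternatives. None passed after adjustment, but with all libraries 1 ratio alone could not pass. With 1 library left out the smallest p the exact test can give is 0.0667 or 0.1, so those fits could not pass.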
